A study of Homo sapiens with 2 samples.

Results

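SRSF3 encodes a small serine/arginine-rich splicing factor (SR protein), and it is represented in the data by 7 of the 239322 exon rows for which reads were counted. The rows were chosen by their position, on the plus strand of chromosome 6 between 36562000 and 36573000 (hg19). The gene itself was selected on the reads of row 4, from 36567598 to 36568658, whose share against its neighbours differed between these same libraries. The difference at row 4 is therefore the reason for the choice and is described here without a test. The cells were Huh-7, an established line from a hepatocellular carcinoma, at passages 15-20. They received 0.1% DMSO (control) or 0.1 mM BS008, an amiloride derivative, for 24 h. The labels give no DMSO content for the BS008 cells. The treatment tag of each sample gives these groups, while the general protocol text of the control sample also names BS008. Each condition has 1 library, so no difference has a replicate check, and every interval given below covers the counting of reads only.

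SR proteins bind pre-mRNA through an RNA recognition motif and recruit the spliceosome through a domain rich in arginine and serine. Many of them also control their own amount. Several SR protein genes contain a so-called poison exon, which carries an early stop codon. A transcript that includes it can be degraded by nonsense-mediated decay (NMD), the pathway that removes mRNAs whose stop codon lies well before the last exon junction. SRSF3 protein is known to promote the inclusion of the poison exon of its own pre-mRNA, which limits its synthesis, and SRSF1 is known to oppose it. SRSF3 is often studied as a proto-oncogene, and it is needed for the maturation and metabolism of hepatocytes. In the study of BS008, SRSF3 is of interest because the compound was examined for its action on splicing and on SR proteins.

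The exon structure of SRSF3 in GENCODE release 29 (GRCh38) was set beside the rows. The lengths of 5 of the 7 rows equalled those of SRSF3 exons, and 5 of the 6 gaps between rows equalled the lengths of SRSF3 introns. Only lengths were compared, and no position was converted between builds. Rows 2, 3, 5 and 6, of 208, 135, 39 and 87 bases, have the lengths of exons 2 to 5 of the protein-coding transcript SRSF3-202. The length of row 4, 1061 bases, is found once, in the last exon of SRSF3-201, a transcript that GENCODE classes as a retained intron. The first 456 of these bases are also exon 4 of SRSF3-203, which GENCODE classes as a target of NMD. By its length and place, row 4 covers the 456-base poison exon and 605 bases that follow it, and the counts do not separate them. Row 1 (169 bases) and row 7 (2505 bases) have the length of no annotated exon and lie at the ends of the gene.

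The joined sequences show what inclusion does to the reading frame. Both begin with the last 30 bases of the 135-base exon (chr6:36598954-36598983, plus strand, GRCh38) in lower case, and the exon that follows is in capitals. The first goes on into the poison exon (chr6:36599821-36599854) and ends at its first in-frame stop codon, TGA. The second goes on into the whole 39-base exon (chr6:36601152-36601190) of the protein-coding transcript.
SRSF3-203: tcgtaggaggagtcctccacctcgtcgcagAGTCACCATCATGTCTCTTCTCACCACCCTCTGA
SRSF3-202: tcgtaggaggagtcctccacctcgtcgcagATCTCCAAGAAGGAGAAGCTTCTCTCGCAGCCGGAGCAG
The reading frame of SRSF3-202 holds 164 codons before its stop codon, TAG, in the last exon. That of SRSF3-203 holds 124 codons before TGA, which occupies bases 32 to 34 of the poison exon and is followed by 422 bases of that exon and by 3 exon junctions. The poison exon has a length divisible by 3 (152 codons), so it does not shift the frame, but 5 of the codons in its frame are stop codons.

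The primer pair that the study used for SRSF3 in RT-PCR was placed on the 8 GENCODE transcripts of the gene, since its forward primer lies in the exon of row 4. The RT-PCR measurements themselves were not used here.
Forward primer: cagcctcacctcaccatttc
Reverse primer: caccacttctcttgcaaactg
The forward primer lies inside the poison exon, at bases 414 to 433 (chr6:36600234-36600253, plus strand, GRCh38), and the reverse primer pairs with the last exon (chr6:36601994-36602014). Both sites are present in 2 of the 8 transcripts. They give a product of 222 bp from SRSF3-203 and of 1097 bp from SRSF3-207, whose first exon contains the poison exon, the whole intron after it and a part of the intron before it. SRSF3-202 has the site of the reverse primer only. On these annotated sequences the pair has no product from SRSF3-202.

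The control library held 55476654 counts and the BS008 library 53578432. Mitochondrial exons took 11.8% and 13.1% of the counts, respectively. Over the 131330 rows with at least 10 counts in either library, the median log2 ratio of BS008 to control was -0.04, with quartiles of -0.37 and 0.30. All 7 SRSF3 rows passed this minimum, and the lowest count among them was 307. Levels are given as RPKM, scaled to the length of the row and the total of the library. Changes are log2 ratios of CPM, scaled to the total only, after a pseudocount of 0.5 CPM was added. In bulk RNA, fewer transcripts per cell and fewer cells that contain them cannot be told apart.

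Row 4, the poison exon with its extension, had 443 reads in the control library and 3136 in the BS008 library. Its level was 7.53 RPKM (95% exact Poisson interval 6.84 to 8.26) in control cells and 55.2 RPKM (53.3 to 57.1) after BS008. The log2 ratio was 2.80. Without a pseudocount the difference was 7.33-fold (95% exact conditional interval 6.63 to 8.11). Row 4 was the only SRSF3 row that was at least 2-fold higher, 1 of 7, and 3.73% of all rows were. No SRSF3 row was at least 2-fold lower, against 3.79% of all rows. Both percentages are of the rows with at least 10 counts, and the pseudocount keeps rows with few reads from reaching 2-fold. A row without control reads would need at least 0.5 CPM after BS008. The percentages therefore include rows that could not be called, while each SRSF3 row had at least 307 reads. In the order of all rows by log2 ratio, row 4 stood at place 184. Rows of at least 1000 bases were 2-fold higher more often than rows in general (8.85% of 12678), and row 4 is among these long rows. Read numbers were not matched in this comparison, and the pseudocount holds back rows with few reads. An effect of length itself was not tested.

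**Figure D1:**
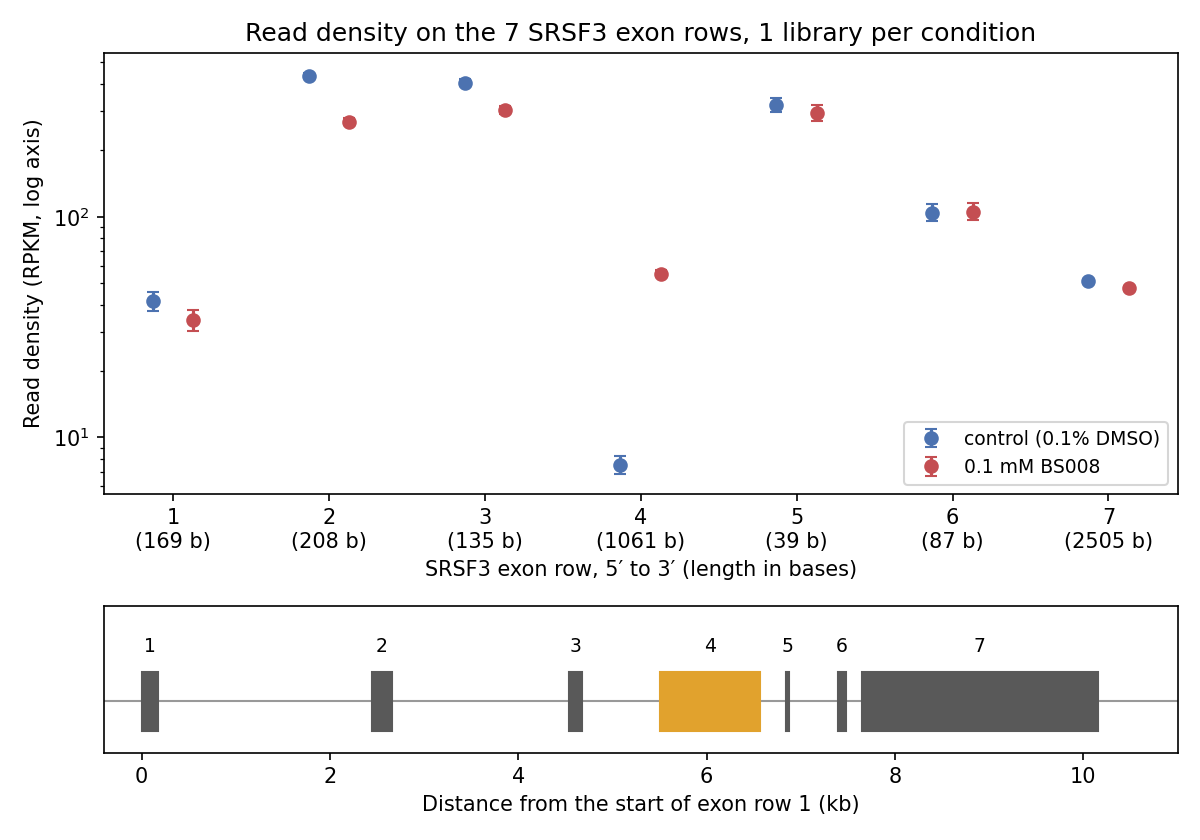
The upper panel gives the read density (RPKM, log axis) of each SRSF3 exon row in the control and the BS008 library, with 95% exact Poisson intervals, and the lower panel draws the rows to scale as distance in kb from the start of row 1, with row 4 in yellow. Row 4 went from 7.53 to 55.2 RPKM, while row 2 went from 436 to 270 RPKM.

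The 3 rows upstream of the poison exon were lower after BS008. Row 2 has the length of the exon with the start codon, and its level went from 436 RPKM (424 to 448) to 270 RPKM (260 to 280), with 5027 and 3007 reads. Its log2 ratio of -0.69 was the lowest of the gene. Row 3, the row just upstream of the poison exon, went from 404 RPKM (390 to 419) to 304 RPKM (292 to 317), with 3027 and 2202 reads and a log2 ratio of -0.40. Row 1, at the 5' end of the gene, had 389 and 307 reads and a log2 ratio of -0.27. For each of these 3 rows, the interval of the fold change lay below 1.

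Downstream of the poison exon the rows differed little. Row 5, the 39-base row, had 693 and 617 reads, and its level was 320 RPKM (297 to 345) in control cells and 295 RPKM (272 to 320) after BS008. Row 6, of 87 bases, had 503 and 492 reads, with 104 RPKM (95.3 to 114) and 106 RPKM (96.4 to 115). The intervals of rows 5 and 6 overlapped between the libraries, and their log2 ratios were -0.11 and 0.02. Row 7, at the 3' end, had the most reads of the gene, 7108 and 6362, with 51.1 and 47.4 RPKM and a log2 ratio of -0.11. The intervals of row 7 did not overlap between the libraries, and the change in CPM was 0.927-fold (0.896 to 0.959). Its size depends on the scaling of the libraries, and with edgeR TMM factors the log2 ratio of row 7 was -0.06.

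**Figure D2:**
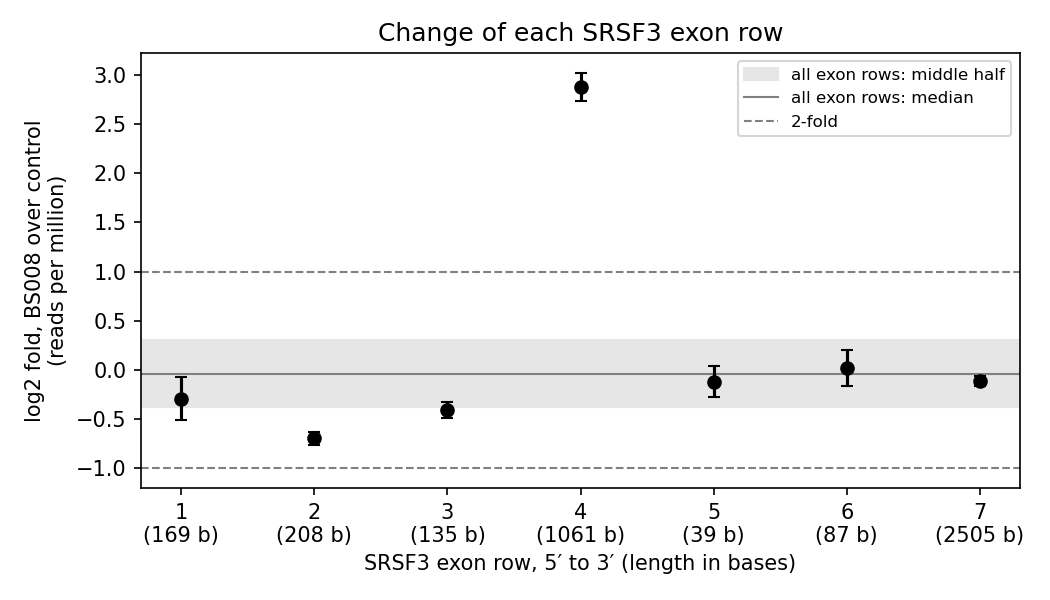
Each point is the log2 fold change (BS008 over control, CPM, no pseudocount) of an SRSF3 exon row, with its 95% exact conditional interval. The median (line) and the quartile range (band) are those of all exon rows with at least 10 counts. Unlike the points, the line and the band include the pseudocount of 0.5 CPM. It shrinks the ratios of rows with few reads, so the 2 scales differ. Row 4 stands at 2.87, above the dashed line for 2-fold, and the other 6 rows lie between -0.69 and 0.02.

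The 6 other rows together had 16747 control reads and 12987 reads after BS008, or 302 and 242 CPM. Their sum was 0.803-fold (0.785 to 0.822) after BS008, a log2 ratio of -0.32. With row 4 included, the sums were 310 and 301 CPM, a log2 ratio of -0.04. The summed SRSF3 reads were thus 0.971-fold (0.950 to 0.992) after BS008, while the distribution of the reads over the rows differed more. This sum is not a level per transcript, since it includes the reads of the 1061-base row 4. The mean density over the 7 rows went from 195 to 159 RPKM. The sum was not recomputed with other scalings. With TMM factors the log2 ratio of the 6 other rows was -0.27 in place of -0.32. That shift is at least as large as the log2 ratio of the sum over 7 rows. Whether this sum was lower or higher after BS008 is therefore not settled.

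The difference was not even along the gene. The 3 rows upstream of row 4 together had 8443 and 5516 reads, 0.676-fold (0.654 to 0.700) after BS008, and the 3 rows downstream had 8304 and 7471 reads, 0.932-fold (0.903 to 0.961). The number of downstream reads for each upstream read was 0.984 (0.954 to 1.01) in the control and 1.35 (1.31 to 1.40) with BS008, which is 1.38-fold higher. For comparison, 41584 runs of 7 consecutive rows on a strand, with at least 100 reads at each end, had a median log2 change in the same quotient of 0.01, and in 9.26% of them the change was at least as high as in SRSF3. These runs overlap and can cross from a gene into the next.

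As a share of all SRSF3 reads, row 4 went from 2.58% (95% Wilson interval 2.35 to 2.82%) in control cells to 19.5% (18.8 to 20.1%) after BS008. The share of row 2 went from 29.2% (28.6 to 29.9%) to 18.7% (18.1 to 19.3%), and that of row 3 from 17.6% (17.0 to 18.2%) to 13.7% (13.1 to 14.2%). Row 7 held 41.3% (40.6 to 42.1%) and 39.5% (38.7 to 40.2%). After BS008 the reads on row 4 outnumbered those on either coding row beside it. However, row 4 has 1061 bases, and rows 3 and 5 have 135 and 39. Its read density after BS008 was 18.4% of the mean of those 2 rows.

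**Figure D3:**
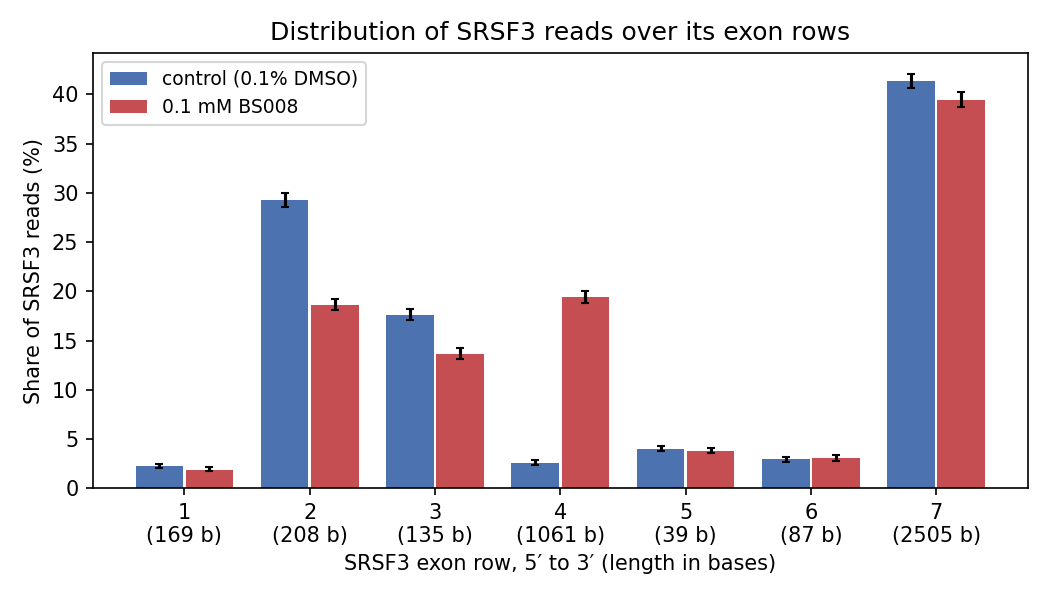
Bars give the percentage of all reads on the SRSF3 exon rows that fell on each row in the control and the BS008 library, with 95% Wilson intervals. Row 4 went from 2.58% to 19.5%, and row 2 went from 29.2% to 18.7%.

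Reads per row depend on the length of the row, so the density of row 4 was also set against that of the other SRSF3 rows. It was 3.33% of their mean density in the control and 31.3% with BS008, 9.42-fold higher. Against the adjacent rows 3 and 5 alone, the values were 2.08% and 18.4%, 8.85-fold higher. These percentages depend on which part of row 4 the reads came from. If all of them lay on the 456-base poison exon, the density would be 7.74% of the mean of the other rows in control cells and 72.9% after BS008. The fold change does not depend on that length if the reads came from the same part of the row in both libraries. The percentages are not the proportion of transcripts that include the exon, because short rows can also count reads that overhang their ends and because density varied more than 10-fold among the other rows in control cells, from 41.5 RPKM in row 1 to 436 RPKM in row 2.

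Relative density was compared over rows with a neighbour on each side within 10 kb and at least 20 own reads in either library. Rows without reads in one of the libraries, on the row or on both neighbours, were left out, also rows with reads after BS008 only. The density relative to the neighbours was at least 2-fold higher after BS008 in 1.95% of the 85735 rows that remained. Row 4 stood at place 100 in this order. Among the 1254 rows that, like row 4, had at most 10% of the density of their neighbours in control cells, 35.6% were at least 2-fold higher after BS008, and row 4 stood at place 78. These rows were picked for a low value in control cells, and those with fewer than 20 control reads passed the minimum only through their BS008 reads. Both choices raise the percentage, so it and the place of row 4 are descriptions of the selected rows only.

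The share of row 4 in the reads on it and on rows 3 and 5 was 10.6% in control cells and 52.7% after BS008, a change of 42.0 percentage points. With reads per base in place of reads the change was 7.40 points, below the limit of 10 points used here, and with all SRSF3 reads as the denominator it was 16.9 points. Of 98957 rows with at least 20 reads on the row and its neighbours in each library, 3.14% had a share at least 10 points higher and 2.84% a share at least 10 points lower, and the median absolute change was 2.06 points. Row 4 stood at place 29 by this change, which is the measure it was chosen by. Of the 5 SRSF3 rows with a neighbour on each side, 1 was higher and 1 was lower by at least 10 points. The lower one, row 5, went from 42.3% to 14.5%, but its own reads were 693 and 617, and its share includes row 4 as a neighbour. Row 3, with a change of -9.24 points, has row 4 as a neighbour as well. Rows 2 and 6 do not, and their shares changed by -5.03 and 0.53 points.

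**Figure D4:**
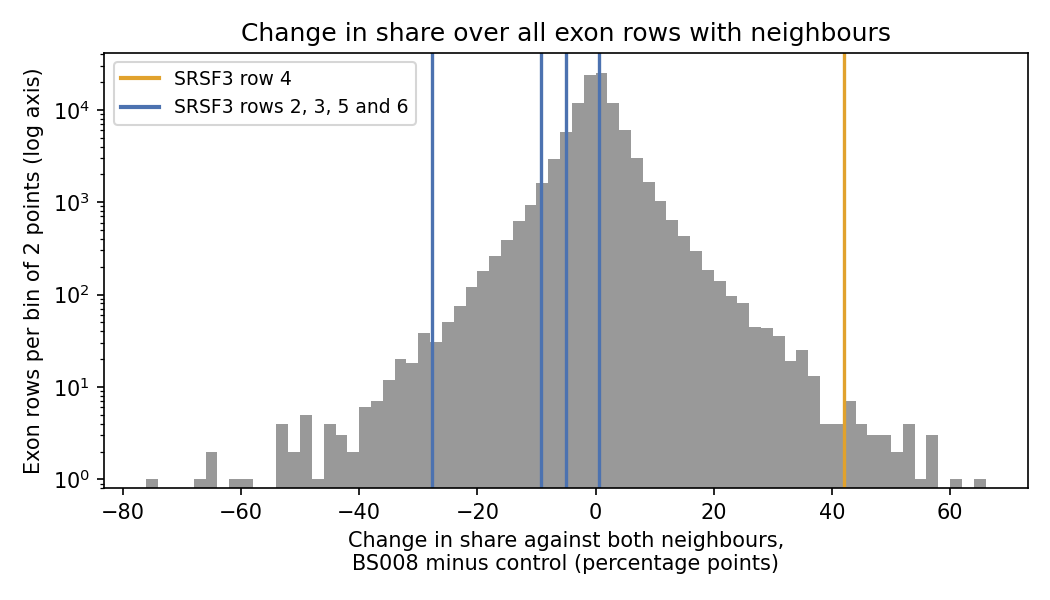
Grey bars count all exon rows with neighbours by the change in their share (BS008 minus control, percentage points, bins of 2 points, log axis), and lines mark the 5 SRSF3 rows. Row 4 stands at 42.0 points, in the upper tail, and row 5, its downstream neighbour, at -27.7 points.

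The 3 rows of the genome whose pair of shares was most like that of row 4 were sought among 32159 rows with at least 500 reads on the row and its neighbours in each library. Likeness was the distance between the pairs in percentage points, over 2 libraries. The nearest row was chr17:26987506-26988238 (minus strand, 733 bases). It had 59 and 353 reads and a share of 9.16% and 57.9%, at a distance of 5.41 points. The row chr12:976870-978799 (plus strand, 1930 bases) had 44 and 602 reads and shares of 4.28% and 55.9%, at 7.13 points. The row chr19:47999030-48000171 (minus strand, 1142 bases) had 28 and 383 reads and shares of 5.38% and 46.7%, at 7.94 points. All 3 had a low density in control cells, at 5.30%, 0.674% and 0.794% of the mean of their neighbours. After BS008 the densities were 71.9%, 19.5% and 12.8%, beside 18.4% for row 4, so rows alike in share differed per base. Row 4 had more reads than any of them in both libraries.

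No other row lies near the gene on the same strand. The closest row before it, 104 kb away (chr6:36454660-36458313), had 3347 control and 4356 BS008 reads, with a log2 ratio of 0.43, and the closest after it, 73.3 kb away (chr6:36645588-36645710), had 0 reads in both libraries. The files list 0 rows on the minus strand that overlap the window and 0 SRSF3 rows that overlap another row. Whether a spliced read that joins row 4 to row 3 or row 5 was counted on both rows was not tested. Human genomes carry processed copies of SRSF3, which derive from spliced mRNA. Of the 50-base stretches of the annotated sequence, 14.5% in the exon of row 2 and 18.4% in that of row 6 occur unchanged in a GENCODE transcript of another gene, but 0% in the exons of rows 3 and 4. How reads with more than 1 position were counted is not given in the sources used here, and the levels of rows 2 and 6 are uncertain to that extent. In the exon of row 4, 0 of 1012 such stretches were shared. Rows 1, 5 and 7 were not checked, since row 5 is shorter than 50 bases and rows 1 and 7 have no annotated exon of their length.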

How the data were processed

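Total RNA of Huh-7 cells was made into libraries with an Illumina mRNA-seq kit, 1 for each condition. The tables that the authors deposited give raw counts per exon, not normalized. The deposited RPKM values, scaled to exon length and library total, were recomputed from the counts to within 4.72e-06. Per the labels, the genome build is hg19. The aligner, counting tool, annotation, read length and strand setting are not given in the sources used here. The members and gene lists were chosen with earlier results of these data known.

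CPM used the summed counts of the table, 55476654 (control) and 53578432 (BS008). Intervals are 95% (exact Poisson for levels, exact conditional binomial for folds, Wilson for shares). Without a second library for either condition, no test was made. Neighbours are the nearest rows on each side, same strand, without overlap, within 10 kb. All 7 rows are named, with the nearest rows outside the window and the 3 rows most like row 4. As the genome annotation at hand was on GRCh38, the planned counts for other SR protein genes and the hepatocyte markers that would check the cell line were not analysed here. Functions were tested on simulated data. Alternatives were other pseudocounts, minimums, distances, references and scalings (edgeR 4.0.16 TMM and DESeq2 1.42.0 size factors in R 4.3.3). Other computations used Python 3.11.15, scipy 1.17.1 and pandas 2.3.3. Sequences came from GENCODE release 29 transcripts and the study's primer list.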

Additional observations from a re-analysis of the deposited data

How the results depend on the processing

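The log2 ratio of row 4 lay between 2.73 and 2.86 under 5 other pseudocounts and scalings, and no SRSF3 row changed sign under any of them. The summed log2 ratio of the other 6 rows was -0.27 with TMM factors, against -0.32, and between -0.32 and -0.28 under the other 4. For row 7 alone the log2 ratio was -0.06 with TMM factors, against -0.11. The sum over all 7 rows was not recomputed. The change in share of row 4 was the same with neighbours within 1 kb or 100 kb, since the nearest rows were the same. It was 46.0 points against the upstream neighbour only, 44.6 against the downstream neighbour only, 16.9 with all SRSF3 rows as the denominator and 7.40 with reads per base. The fold difference in relative density was 8.29-fold against the median of the other rows and between 8.85 and 9.50 under the other alternatives. With all reads of row 4 set on the annotated cassette exon, an alternative chosen after seeing the data, its density was 7.74% and 72.9% of the mean of the other rows.

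Counts over all rows depended on the limits. Rows at least 2-fold higher and lower, 4902 and 4977, became 11471 and 11189 (pseudocount 0.1) or 3020 and 3017 (pseudocount 1). Rows with a share at least 10 points higher and lower were 3108 and 2808. They were 703 and 652 with neighbours within 1 kb, and 4664 and 4313 within 100 kb. With at least 100 reads they were 1077 and 928, and with a limit of 20 points 534 and 408. The distance and the read minimum also set how many rows are compared, so these counts do not share a denominator. No paired analysis was possible because each condition has 1 library, and for the same reason none could be left out. The spread between cultures is unknown.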
